A study of Mus musculus with 6 samples.

Results

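H3K4me3 in the gastrocnemius, a fast calf muscle, of control mice was compared with input libraries of the same muscle to describe which promoters carried the mark beyond input. The comparison held 20953 peaks in 3 lists, of 48419 in the 6 libraries of the series. Of these, 16573 came from the 1 H3K4me3 library, 3071 from input 1 and 1309 from input 2. Chromosomes 1 to 19, X and Y were taken whole, and an H3K4me3 peak counted as shared with input where it overlapped an input peak by 1 bp or more. All 3 libraries were labelled control (Ctrl) with the genotype Phf2 flox/flox;Acta1 Cre-, from C57BL/6 male mice 4 weeks old. These animals carried the floxed Phf2 alleles and no Cre, and the series also holds H3K9me2 lists and a Cre+ input that have no part in the main comparison. The H3K4me3 library is titled wild type, although its genotype label is that of the controls. The study examined the role in muscle of PHF2, a protein whose PHD finger binds H3K4me3. With 1 library of H3K4me3 and 2 of input, no test between them can go below an exact p of 0.33, so counts, medians and intervals are given without a test.

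H3K4me3 is the trimethylated form of lysine 4 of histone H3. It is laid down around transcription start sites by methyltransferases of the SET1 and MLL families, removed by the KDM5 enzymes, and read by PHD fingers and related domains in transcription and chromatin proteins. It is known above all from promoters rich in CpG dinucleotides, of active genes and of many genes poised for activation. CUT&RUN maps it with an antibody-tethered nuclease that cuts around marked nucleosomes. An input shows where fragments accumulate without regard to the mark. Its preparation was not given in the sources used here, and the labels describe overnight antibody staining for all samples alike.

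The bases before 8 gene starts are printed first, because base composition differs between promoters with and without the mark. Each runs 5′ to 3′ over the 200 bases before the RefSeq start (GRCm38.p6, the assembly on which mm10 is based). Capitals mark exact matches, on either strand, of the TATA box TATAAA, of the motif CCAAT, of the GC box GGGCGG, of the string TGACG, of the string GCATGCG and of the string CCGGAAG. Matches can overlap, and a match is a string of letters and not a shown binding site. The genes were chosen after their values were seen. The first 4 had a peak beyond input: Phf2, the targeted gene, Pacrgl, with the highest fold, Ing2, which binds H3K4me3 and had a wide peak, and Wdr5, a shared subunit of H3K4 methyltransferases.
Phf2, chromosome 13, minus strand: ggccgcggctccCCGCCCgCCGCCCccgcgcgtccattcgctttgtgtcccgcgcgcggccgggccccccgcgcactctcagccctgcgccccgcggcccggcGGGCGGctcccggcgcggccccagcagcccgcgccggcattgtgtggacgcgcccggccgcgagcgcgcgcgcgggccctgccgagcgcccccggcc
Pacrgl, chromosome 5, plus strand: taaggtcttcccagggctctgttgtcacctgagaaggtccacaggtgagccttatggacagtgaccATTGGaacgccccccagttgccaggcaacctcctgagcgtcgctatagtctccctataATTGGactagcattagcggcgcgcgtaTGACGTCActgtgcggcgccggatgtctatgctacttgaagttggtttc
Ing2, chromosome 8, minus strand: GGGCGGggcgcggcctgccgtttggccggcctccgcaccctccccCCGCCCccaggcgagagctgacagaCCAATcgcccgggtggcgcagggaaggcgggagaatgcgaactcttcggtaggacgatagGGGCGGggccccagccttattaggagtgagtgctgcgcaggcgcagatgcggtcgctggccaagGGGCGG
Wdr5, chromosome 2, plus strand: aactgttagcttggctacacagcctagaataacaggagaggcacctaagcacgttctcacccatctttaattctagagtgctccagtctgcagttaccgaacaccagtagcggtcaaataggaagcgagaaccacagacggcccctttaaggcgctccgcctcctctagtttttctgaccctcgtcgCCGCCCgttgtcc
The next is the start of Rcn2, a calcium-binding protein of the endoplasmic reticulum, whose H3K4me3 peak overlapped peaks of both inputs.
Rcn2, chromosome 9, plus strand: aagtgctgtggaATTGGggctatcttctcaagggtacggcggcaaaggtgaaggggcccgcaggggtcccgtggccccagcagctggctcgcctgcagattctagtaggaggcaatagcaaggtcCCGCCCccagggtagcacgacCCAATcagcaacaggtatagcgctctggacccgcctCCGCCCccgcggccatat
The last 3 are muscle genes: Cmya5, encoding a protein of costameres and sarcomeres, had a peak beyond input, and Acta1, skeletal actin, and Myh4, the fast IIb myosin, had none.
Cmya5, chromosome 13, minus strand: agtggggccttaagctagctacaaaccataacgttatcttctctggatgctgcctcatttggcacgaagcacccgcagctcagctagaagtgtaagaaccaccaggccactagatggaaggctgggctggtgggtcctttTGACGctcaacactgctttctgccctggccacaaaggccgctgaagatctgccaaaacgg
Acta1, chromosome 8, minus strand: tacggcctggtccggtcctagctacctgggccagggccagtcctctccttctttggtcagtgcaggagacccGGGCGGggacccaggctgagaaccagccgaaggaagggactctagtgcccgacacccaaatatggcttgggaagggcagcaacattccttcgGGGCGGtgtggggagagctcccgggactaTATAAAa
Myh4, chromosome 11, plus strand: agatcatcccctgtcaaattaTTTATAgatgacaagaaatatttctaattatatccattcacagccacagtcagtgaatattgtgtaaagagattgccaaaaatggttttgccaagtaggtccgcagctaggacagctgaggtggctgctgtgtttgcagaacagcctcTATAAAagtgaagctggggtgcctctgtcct
The stretch at Phf2 (48870886 to 48871085) held 41 CpG dinucleotides, and that at Ing2 (47675160 to 47675359) held 21. Rcn2 had 12, Pacrgl 11 and Wdr5 11. Acta1 had 9, Cmya5 6 and Myh4 1. TATAAA stood in the printed bases of Acta1 and Myh4 and in none of the other 6.

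The H3K4me3 peaks were wider and higher than those of input. The median width was 753 bp for H3K4me3, 370 bp for input 1 and 363 bp for input 2. The fold is the authors' ratio of fragments at the summit to the local background, with 1 added to both. Its median was 10.01, 4.99 and 4.94 in the same order. The added 1 lowers the fold most where the local background is below 1 fragment. At gene starts the median local background of input peaks was 0.463 in input 1 and 0.478 in input 2. The median number of fragments at the summit was 52 for H3K4me3 and 6 in each input, so a single input peak rests on few fragments. Coverage of the genome background, which follows sequencing depth, was 0.482 fragments for H3K4me3, 0.294 for input 1 and 0.292 for input 2. Input 1 held more peaks than input 2 at nearly the same background coverage.

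Of the 16573 H3K4me3 peaks, 14609 (88.1%, exact Clopper-Pearson 95% interval 87.6 to 88.6) overlapped no peak of either input. Such intervals cover counting error alone. Input 1 touched 1465 of the H3K4me3 peaks and input 2 touched 710, and 211 were touched by both. Seen from the inputs, 47.7% of input 1 peaks and 54.2% of input 2 peaks overlapped an H3K4me3 peak. The overlap lay at gene starts. Within 2 kb of a coding gene start, 89.6% of input 1 peaks and 92.6% of input 2 peaks overlapped H3K4me3, against 13.0% and 18.1% elsewhere. Input peaks were themselves often at starts, 45.3% of input 1 and 48.4% of input 2, where 76.0% of H3K4me3 peaks lay.

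H3K4me3 peaks lay within 2 kb of a start in 13142 of the 21887 coding genes (60%). In 11364 genes (51.9%) at least 1 of these peaks overlapped no input peak, and these genes are said here to carry the mark beyond input. The term reads only whether an input peak was listed, not how far H3K4me3 exceeds input. At start peaks shared with input, the H3K4me3 fold was also above the input fold in 1667 of 1690. In 1778 genes (8.12%) each H3K4me3 peak at the start overlapped input, and 8745 genes (40%) had no H3K4me3 peak there. The count only with input depends on the input lists: it was 622 without input 1, 133 with peaks of q 1e-05 or less, and 5561 with the input of the Cre+ (CKO) muscle added, which left 7581 genes beyond input. Measured in the same way, input 1 had a peak at the start of 1534 genes (7.01%), input 2 at 708 (3.23%) and both inputs at 173 (0.79%). An input peak stood at the start of 14.5% of the genes with H3K4me3 and of 1.80% of those without. Neighbouring genes can share a peak, and 1510 of the 12593 H3K4me3 peaks at starts lay at the starts of 2 or more coding genes. Muscle holds several cell types, and a mark in fewer cells cannot be told apart from a weaker mark per cell.

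A stranded start was used for 17492 genes. For the remaining 4395, either end of the gene stood in for the start. With a stranded start 60.2% had any H3K4me3 peak and 52% had it beyond input. With either end the shares were 59.3% and 51.5%. In 72 of the genes beyond input, a higher peak at the same start did overlap input.

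Start peaks shared with input held more summit fragments than those beyond input and were wider, and their median fold was slightly higher. The 10903 start peaks beyond input had a median width of 796 bp (quartiles 614 and 1041), a median fold of 10.7 (7.87 and 13.8) and a median of 61 summit fragments (30 and 90). The 1690 start peaks that overlapped either input had medians of 926.5 bp (763 and 1126), a fold of 11.8 (9.65 and 14.3) and 85 fragments (59 and 107). The quartiles of the 2 kinds overlapped in each measure. The share of start peaks touched by input was higher at peaks with more summit fragments. It was 6.08% (95% interval 5.14 to 7.13) below 25 fragments, 7.34% from 25, 15.3% from 50, 22.3% from 100 and 22.7% (16.5 to 29.9) from 150 fragments. By width it was 4.44% below 500 bp, 13.1% from 500, 18.7% from 1000, 14.4% from 1500 and 7.75% (3.78 to 13.8) at 2000 bp or more, where 10 of 129 peaks were touched.

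Width and fold were not the same measure of a promoter. Across the 12593 start peaks, Spearman's rho was -0.05 between width and fold, 0.48 between width and summit fragments and 0.52 between fold and summit fragments. These are correlations over peaks of 1 library, which share its depth. Peaks of 500 to 1000 bp had a median fold of 12.7 on 61 summit fragments. Peaks of 2000 bp or more had a lower median fold of 6.08 on more fragments, 105. The median local background beneath them was 15.8 fragments, against 3.68 under the narrower class. The fold divides by that background, so a low fold at a wide peak is not a low summit. Over all H3K4me3 start peaks the median local background was 4.42 fragments, against a genome background of 0.482 in this library. The part of it made up of fragments of the peaks themselves was not tested.

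**Figure D1:**
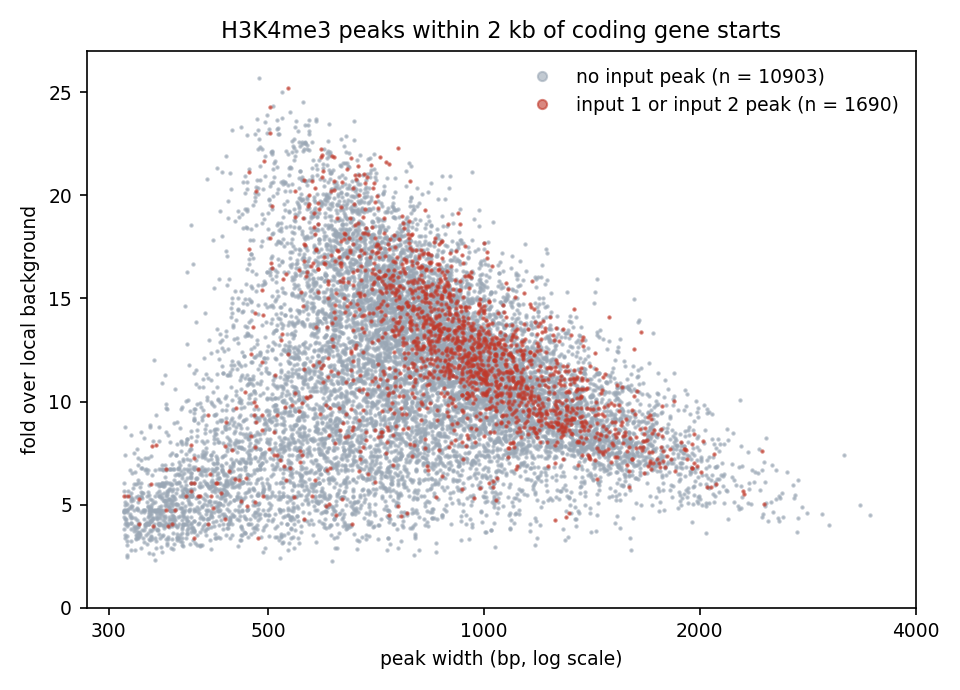
Width (bp, log axis) against fold over local background of each H3K4me3 peak within 2 kb of a coding gene start. Grey points (n = 10903) overlapped no input peak and red points (n = 1690) overlapped input 1 or input 2; the 12 highest folds beyond input stand at widths of 483 to 659 bp, and the widest peaks beyond input, those of the 12 widest genes, have folds of 3.67 to 7.41.

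The 12 highest folds beyond input stood at narrow peaks. They ran from 23.6 to 25.7, at widths of 483 to 659 bp and with 114 to 188 summit fragments. Pacrgl led at 25.7 (48372253 to 48372738 on chromosome 5, 177 summit fragments). Pnpt1, which encodes a mitochondrial RNA-processing enzyme, stood at 25.02 (29130629 to 29131151 on chromosome 11), and Ndufb2, a complex I subunit, at 24.5. Trdmt1, an RNA methyltransferase, had 23.8. Bbs4 and Ttc33 had 23.6, and Bbs4 belongs to the BBSome of cilia. Zwint, a kinetochore protein, had 23.6 and Lsm5, an RNA-binding protein of the LSM ring, 23.9. Where a strand was given, the summits of these 12 lay 62 to 324 bp downstream of the start.

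The 12 genes with the widest start peaks beyond input had 11 peaks among them, since Brd2 and H2-DMa share 1. None of the 12 genes with the highest folds was among them. The peaks spanned 2718 to 3458 bp, with folds of 3.67 to 7.41 on 84 to 163 summit fragments. The widest lay at Gnas, encoding the stimulatory G protein alpha subunit, at 174327739 to 174331196 on chromosome 2 (3458 bp, fold 4.51). Ing1, a PHD finger protein that binds H3K4me3, came next with 3345 bp (11555133 to 11558477 on chromosome 8), followed by Myc with 3180 bp. Smarca2, a chromatin remodelling ATPase, had 2956 bp. Irs2, an adaptor of the insulin receptor, had 2824 bp, and Brd2, a bromodomain protein, 2734 bp.

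The most summit fragments beyond input stood at Fzd8, a Wnt receptor, with 227. Tbc1d4, which regulates glucose transporter traffic in muscle and fat, had 206, at 101607729 to 101609240 on chromosome 14 with a fold of 11.6. Stam, an endosomal sorting protein, had 199 and Fzd1, another Wnt receptor, 193. By comparison Phf2 had 81, in a peak of 1665 bp at 48869852 to 48871516 with a fold of 7.81. Its summit lay upstream of the stranded start, at -333 bp.

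Summits lay downstream of the start. Of 10137 H3K4me3 summits at stranded starts, 77.9% (95% interval 77.1 to 78.7) were downstream, at a median of 136 bp (132 to 140) and quartiles of 21 and 261 bp. The input summits had similar medians, 138 bp (115 to 150, n = 1127) in input 1 and 136.5 bp (113 to 170, n = 508) in input 2, with quartiles of -21 and 306.5 bp and of -25 and 320.5 bp. Of the H3K4me3 summits 42.7% lay 1 to 200 bp downstream, against 31.6% in input 1 and 30.3% in input 2. In the 100 bp before the start the order was reversed, with 9.59% of H3K4me3 summits, 13.7% of input 1 and 15.2% of input 2. Where an input peak overlapped an H3K4me3 peak at a start, the 2 summits were a median of 142 bp apart in input 1 and 156 bp in input 2. They were within 100 bp of each other in 37.4% and 35.8% of these pairs.

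**Figure D2:**
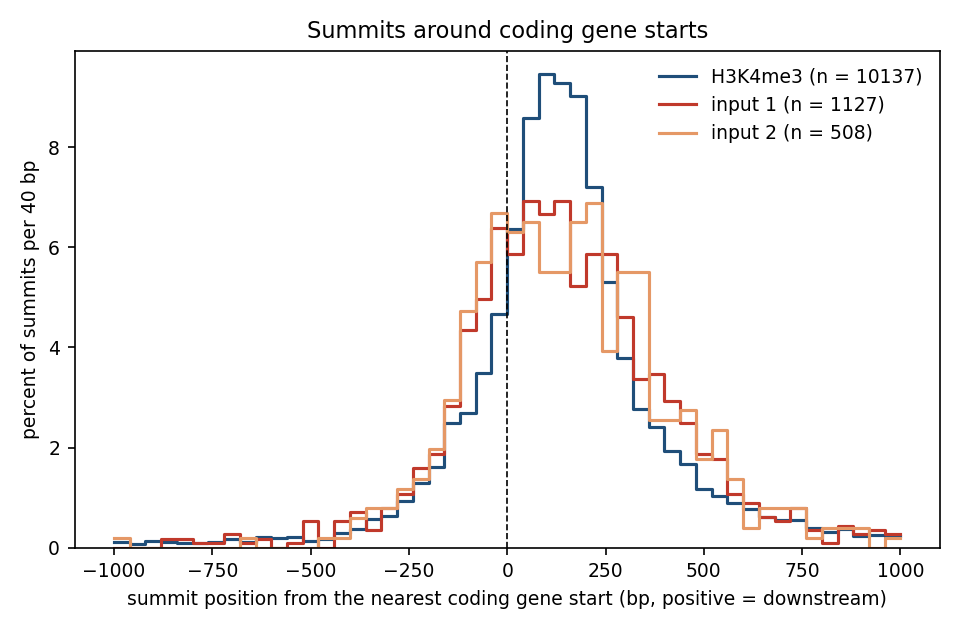
Position of the summit relative to the nearest stranded coding gene start (bp, positive downstream) as a percentage of summits per 40 bp, for H3K4me3 (n = 10137), input 1 (n = 1127) and input 2 (n = 508). The H3K4me3 curve is highest just downstream of the start, where 42.7% of its summits lie within 1 to 200 bp, and the input curves are flatter.

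The peaks reached further into the gene than away from it. Of the peaks at stranded starts 87.6% covered the start itself, 9.83% lay wholly downstream and 2.60% wholly upstream. Those covering the start extended a median of 275 bp upstream and 541 bp downstream. In the class of 2000 bp or more the medians were 902 bp and 1320 bp. Peaks under 500 bp covered the start less often, 58.0% of 1095, and 31.1% of them lay wholly downstream. Most marked starts had 1 peak, 12115 of 12600, while 470 had 2 and 15 had 3 or more. Where there were 2, the start lay in the gap between them in 82 cases.

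Genes with alternative starts often had the mark at 1 of them. Of 847 genes with exactly 2 groups of starts over 5000 bp apart, 200 had a peak at both, 347 at the upstream group alone, 125 at the downstream group alone and 175 at neither. Examples were picked after their values were seen. Bckdhb, a subunit of the enzyme that breaks down branched-chain keto acids, had its peak at the upstream start (fold 23.1), as did Capn3, the muscle calpain (4.65). Tpm3, a tropomyosin of slow fibres with other isoforms in other cells, had it at the downstream start alone (9.95). Runx1 had it at the downstream start too (7.11), 128745 bp from the upstream one. Pfkm, muscle phosphofructokinase, had peaks at both starts, 14.6 upstream and 7.49 downstream.

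At shared peaks the fold of H3K4me3 was above that of input in nearly all cases. It exceeded the highest overlapping input fold at 1896 of 1964 shared peaks, with a median ratio of 2.27 (95% interval 2.24 to 2.31). At starts the ratio was 2.32, and 1667 of 1690 peaks were above 1. The H3K4me3 summits there held a median of 85 fragments and the input summits 6. Each list has its own local background and depth, so the ratio describes the lists and is not a difference in the amount of mark. The 1 added to summit and background also lowers the input folds more. The median local background was 5.84 fragments at the shared H3K4me3 start peaks. At start peaks with H3K4me3 it was 0.463 in input 1 and 0.478 in input 2. The part of the ratio due to the added 1 was not tested. Away from starts the ratio was 1.78, and for the 63 peaks there that overlapped both inputs it was 1.08, with 38 of the 63 above 1.

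The starts touched by both inputs showed this range gene by gene. Ncbp3, an RNA cap-binding protein, had folds of 14.8 in H3K4me3, 3.53 in input 1 and 3.98 in input 2, the highest ratio of these starts at 3.73. Slc35b3 had 19.3, 5.35 and 5.15 in the same order. Rcn2 had 21.4, 4.59 and 6.02, at 56041765 to 56042431 on chromosome 9. All 3 genes were taken from the highest ratios at such starts, so an H3K4me3 fold far above both inputs follows from that choice. Their input folds were closest to each other in Slc35b3 and furthest apart in Rcn2.

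The starts with the lowest ratios included predicted genes and members of repeated families. Gm51573 had folds of 4.05 in H3K4me3, 6.45 in input 1 and 9.98 in input 2, on 5 H3K4me3 fragments. Vmn2r29, a vomeronasal receptor gene, had 16.2, 19.2 and 13.8, and Duxf3, a member of the Dux repeat, 4.91, 5.23 and 5.68. In genes with near-identical copies the member that the reads came from is uncertain. These 3 genes were taken from the 10 lowest ratios, and their H3K4me3 fold did not exceed the higher input.

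Of the 8 highest H3K4me3 peaks overlapping both inputs, 6 lay away from coding starts. The highest, at 35305232 to 35305592 on chromosome 9 and outside coding genes, had folds of 30.8 in H3K4me3, 30.9 in input 1 and 32.1 in input 2. A peak in the body of Zc3h7a (11143917 to 11144311 on chromosome 16) had 22.4, 26.8 and 27.2, and 1 where Cmss1 and Filip1l overlap (57391219 to 57391681 on chromosome 16) had 21.5, 26.98 and 26.7. These 3 were as high in the inputs as in H3K4me3 or higher. The second highest, at 19784503 to 19785292 on chromosome 8 and also away from coding starts, differed, with 22.5 against 8.42 and 10.4. So did the peak at the start of Hjurp, a chaperone of the centromeric histone, with 22.3 against 7.61 and 5.78.

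**Figure D3:**
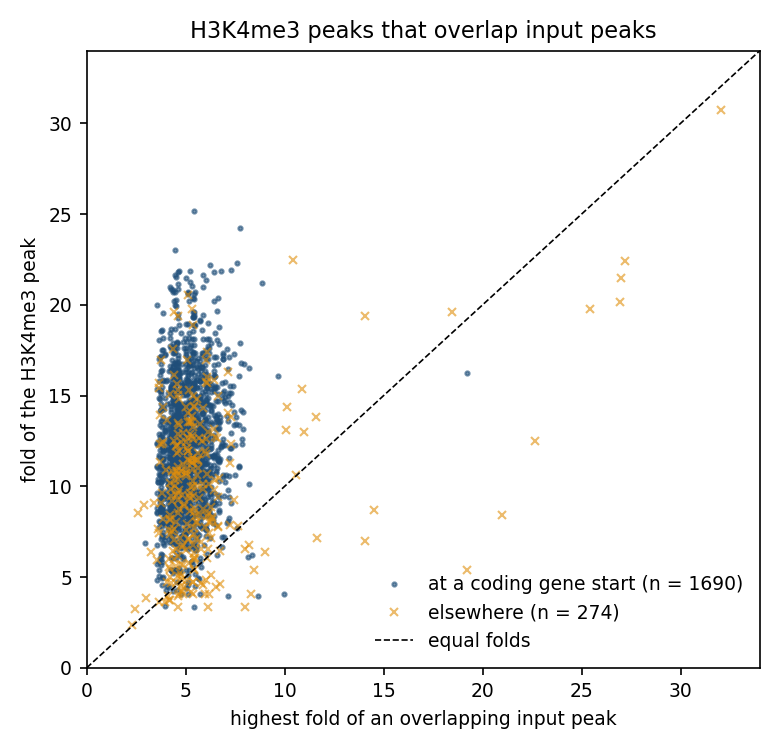
Fold of each shared H3K4me3 peak (vertical) against the highest fold of an overlapping input peak (horizontal), at coding gene starts (n = 1690, points) and elsewhere (n = 274, crosses), with the line of equal folds. Most peaks stand above the line at input folds near 5, and those with input folds over 20 are crosses on or below it.

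Promoters with the mark were richer in CpG. CpG content is given as observed over expected, the number of CpG dinucleotides over that from the counts of C and G, in the 300 bases from 250 before to 50 after the start. Its median was 0.78 in the 9100 genes beyond input with a stranded start, 0.84 in the 1435 with a peak only with input and 0.19 in the 6957 with none. The lower quartiles of the marked classes, 0.62 and 0.71, stood above the upper quartile of the genes without a peak, 0.33. The share of genes with an H3K4me3 peak went from 5.45% (95% interval 4.76 to 6.21) below 0.2 to 23.7% from 0.2, 65.0% from 0.4, 91.2% from 0.6, 97.0% from 0.8 and 98.1% (97.3 to 98.8) from 1. Among marked genes the share with a peak only with input also increased, from 5.66% in the lowest of these classes to 16.7% in the highest. The median width of peaks beyond input went from 617.5 to 972 bp over the same classes.

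**Figure D4:**
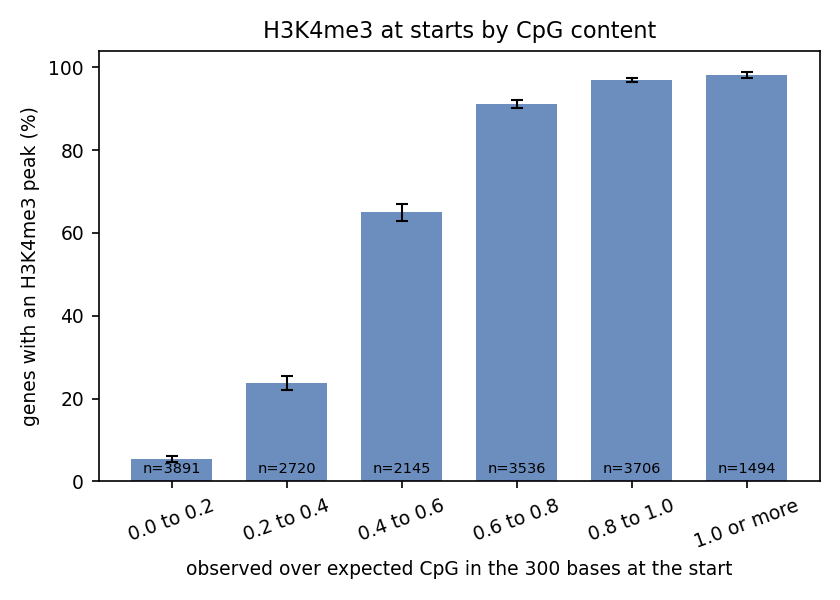
Percentage of genes with an H3K4me3 peak within 2 kb of the start (bars, from 0, with exact 95% binomial intervals) by observed over expected CpG in the 300 bases at the start. Bars rise from 5.45% in the lowest class to 98.1% in the highest, and n is the number of genes with a stranded start in each class.

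The shares of most short motifs differed between the same classes of genes, whose base composition also differed. The median GC content of the 300 bases was 62% in genes beyond input, 65.7% in those only with input and 47% in those without a peak. Apart from the TATA box and CCAAT, each motif given here contains a CpG dinucleotide. Whether the motif shares differ beyond what base composition gives was not tested. GGGCGG was found in the 300 bases of 68.6% of genes beyond input, 77.4% of those only with input and 13.9% of those without a peak, against 47.6% of all start sequences of that length. TATAAA was found in 6.49%, 4.39% and 23.5%, against 13.1% of all. CCAAT differed less, with 38.8%, 33.4% and 39.5%, against 38.6% of all. CCGGAAG, which holds the core bound by ETS factors, was in 18.4%, 19.7% and 2.75%, against 12.3% of all. Among genes beyond input, 33.8% of those with a fold of 20 or more had CCGGAAG, against 9.50% of those with a fold below 5. GGGCGG went with width, from 48.7% at peaks below 500 bp to 81.9% at 2000 bp or more. TGACG was in 32.5%, 34.7% and 11.1%, against 24.2% of all, and GCATGCG in 6.52%, 7.53% and 1.35%, against 4.54% of all.

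Genes of the mark itself came next. Of 16 subunits of the H3K4 methyltransferase complexes, 14 had a peak and 13 had it beyond input, where 60% and 51.9% of all coding genes did. Their median width was 1041 bp, against 840 bp over all marked genes. Wdr5 had a fold of 15.3 in a peak of 1038 bp (27514699 to 27515736 on chromosome 2), with its summit 178 bp downstream of the start. Cxxc1, which brings SET1 to CpG islands, had 14.9 and Wdr82, another SET1 subunit, 14.1. Dpy30 had 14.2 and was the member marked only with input, where input 1 had 4.59. Ash2l and Ncoa6 had no peak at the start, and Ash2l was placed by either end.

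Of 6 H3K4 demethylase genes, 5 had a peak and all 5 beyond input. Kdm5a had a fold of 11.3, Kdm1b 10.9, Kdm1a 10.6 and Kdm5c 8.65. Kdm5d, the Y-linked member, had none. All 16 genes of H3K4me3-binding proteins had a peak, 15 of them beyond input. Sgf29, a SAGA subunit, led with 20.04, followed by Ing3 with 15.5, the demethylase Kdm4a with 13.5 and Dido1 with 12.7. Ing1, Ing2 and Phf13, the last of these named with Ing2 after their values were seen, had peaks over 2000 bp wide, of 3345, 2377 and 2147 bp. Taf3, the TFIID subunit that binds the mark, was the member marked only with input, with 11.4.

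Genes used by most cells were marked almost throughout. Over 7 lists of transcription and housekeeping genes, 144 of 153 had a peak and 119 had it beyond input, where 60% and 51.9% of all coding genes did. TFIID and Mediator subunits had 24 of 25, led by Med4 at 19.6 and Med17 at 17.3. RNA polymerase II subunits had 12 of 12, led by Polr2d at 17.5, a peak shared with input, and Polr2c at 14.6. Cytosolic tRNA synthetases had 20 of 20, with Aars at 21.3 and Rars at 20.7. Nuclear pore subunits had 22 of 22, with Nup35 at 19.2. CCT and heat shock chaperones had 25 of 26, with Cct6a at 16.6 (shared with input) and Cct8 at 15.2, and 6 of the 25 were marked only with input. DNA repair had 24 of 25, led by Ercc6 at 20.7 and Ddb2 at 19.6, with a median fold of 15.5, against 11.2 over all marked genes. V-ATPase subunits had 17 of 23. Their 6 members without a peak were Atp6v1b1, Atp6v1c2, Atp6v1e2, Atp6v1g3, Atp6v0a4 and Atp6v0d2. These were named after their values were seen and are known as isoforms used in few tissues. The members with a peak were not sorted by tissue use.

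Cell cycle genes were marked in 24 of 25, where 60% of all coding genes were, led by Mcm6, of the replicative helicase, at 18.98 and Cenpa, the centromeric histone, at 18.6. Immediate early genes, which respond to stimuli within minutes, had 25 of 25, of which 24 were beyond input, against 60% and 51.9% of all coding genes. They had a median width of 1261 bp and a median fold of 7.41, wider and of lower fold than the medians of 840 bp and 11.2 over all marked genes. Nr4a2 had 12.4, Fosl1 10.8, Klf6 9.72 and Fosb 9.62. Their median of 87 summit fragments was above the 67 of all marked genes.

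Contractile and calcium-handling genes of the muscle fibre were marked in part. Of 46 genes in 3 lists 22 had a peak, all beyond input. The lists hold sarcomere genes together with the calcium-handling genes Pvalb, Atp2a1, Atp2a2, Casq1 and Casq2. Of all coding genes 60% had any peak and 51.9% had it beyond input. The fast-fibre list had 9 of 15 (60%), the share of all coding genes with any peak. It was led by Myl1, a fast light chain, at 13.3 and Pvalb, the calcium buffer parvalbumin, at 8.71. Actn3, a Z-disc protein of fast fibres, had 8.70 and Tnni2, fast troponin I, 6.35. Actn3 and Tnni2 were placed by either end, and the Actn3 peak lay at ends of 2 coding genes. Among the other members counted, Atp2a1 had its summit at -1252 bp with a fold of 3.30, and Tpm1 at 949 bp. No peak was listed at the starts of Myh1, Myh2, Myh4, Mylpf, Tnnc2 or Myoz1. The slow-fibre list had 3 of 12 (25%), namely Tnnc1 at 15.9, Tpm3 at 9.95 and Atp2a2 at 6.88. The Tnnc1 peak had its summit at -1602 bp, upstream of the start, and lay at starts of 2 coding genes. The Tpm3 peak lay at the downstream start alone, in a gene with other isoforms in other cells. Atp2a2 was placed by either end. The slow genes without a peak were Myh7, Myh7b, Myl2, Myl3, Tnnt1, Tnni1, Mybpc1, Casq2 and Myoz2.

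Sarcomere genes of all fibres had 10 of 19 (52.6%), all beyond input, where 51.9% of all coding genes had a peak beyond input. They were led by Cmya5 at 12.4, Cap2 at 9.75, Des, the muscle intermediate filament, at 8.81 and Actn2 at 8.04. Acta1, Ttn, Neb, Myom2, Csrp3, Lmod2, Mypn, Ankrd2 and Smpx had none. The nearest H3K4me3 peak lay 11.3 kb from the start for Acta1, 187.7 kb for Ttn and 184.8 kb for Myh4. Of the 26 muscle genes without a start peak in these lists and that of myogenic regulators, 4 had an H3K4me3 peak elsewhere in the gene: Tnnc2 (5.68), Myh7b (4.14), Myom2 (3.78) and Mef2b (11.6). Skeletal actin, titin and the fast myosins are among the most abundant products of this muscle, so a start without a listed peak does not show a silent gene here. The median number of summit fragments of the marked members was 34 in the fast list, 30.5 in the list of all fibres and 56 for the 3 of the slow list, against 67 over all marked genes. At stranded starts the median CpG observed over expected was 0.39 (0.04 to 0.82, n = 15) for genes of these 3 lists with a peak. It was 0.28 (0.04 to 0.68, n = 21) for those without. The 2 ranges overlapped almost entirely. For transcription and housekeeping genes with a peak it was 0.86 (0.28 to 1.24, n = 111).

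Myogenic regulators had 14 of 16, 12 beyond input, where 60% and 51.9% of all coding genes did. Eya1, a cofactor of myogenic homeobox factors, had 16.7 in a peak shared with input, Tead1 13.5, Pax3 10.7 and Tead4 10.3 (shared with input). Myf5 and Mef2b had none. Of the markers of other cells in muscle, those of satellite cells had 8 of 10 (Cxcr4 at 12.6), endothelial cells 7 of 12 (Kdr at 14.3), smooth muscle and pericytes 7 of 12 (Abcc9 at 10.4, shared with input), Schwann cells 6 of 10 (Erbb3 at 12.2) and tendon cells 6 of 10 (Mkx at 7.71). The last 4 of these lists, at 58.3% or 60% of their genes, stood at the share of all coding genes. Fibroadipogenic markers had 3 of 12, namely Fbn1 at 13.7, shared with input, Mmp2 at 10.1 and Col1a2 at 6.64. Adipocyte markers had 2 of 8, Pparg at 11.01 and Lpl at 10.2. Blood and immune markers had 1 of 16, Cd4, at 9.32 in a peak shared with input and at the ends of 2 coding genes. Some of these genes sit in 2 lists, such as Des and Egr2, and several are used by muscle fibres too. The part that each cell type had in the mark was not tested.

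Of the genes of other tissues, 12 of 63 over 4 lists had a peak, where 60% of all coding genes did. Neuronal genes had 6 of 15, led by Map2 at 13.7 and Slc17a7 at 8.64. The Slc17a7 summit lay upstream of the start, at -1655 bp. Liver genes had 2 of 14, Apoa2 at 8.19 and Apoa1 at 5.40 on 7 fragments. The Apoa2 peak had its summit 1077 bp downstream and lay at starts of 2 coding genes. The Apoa1 summit lay 1514 bp downstream. Keratins had 2 of 17, Krt1 at 7.42 on 10 fragments and Krt8 at 4.01 on 5 fragments, with its summit 1010 bp downstream. Spermatogenesis genes had 2 of 17, Dazl at 9.32 and Spata18 at 7.63. The Krt8 peak held about as few fragments as a typical input peak, whose median was 6. The Krt1 peak held more than the upper quartile of 8 in each input.

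**Figure D5:**
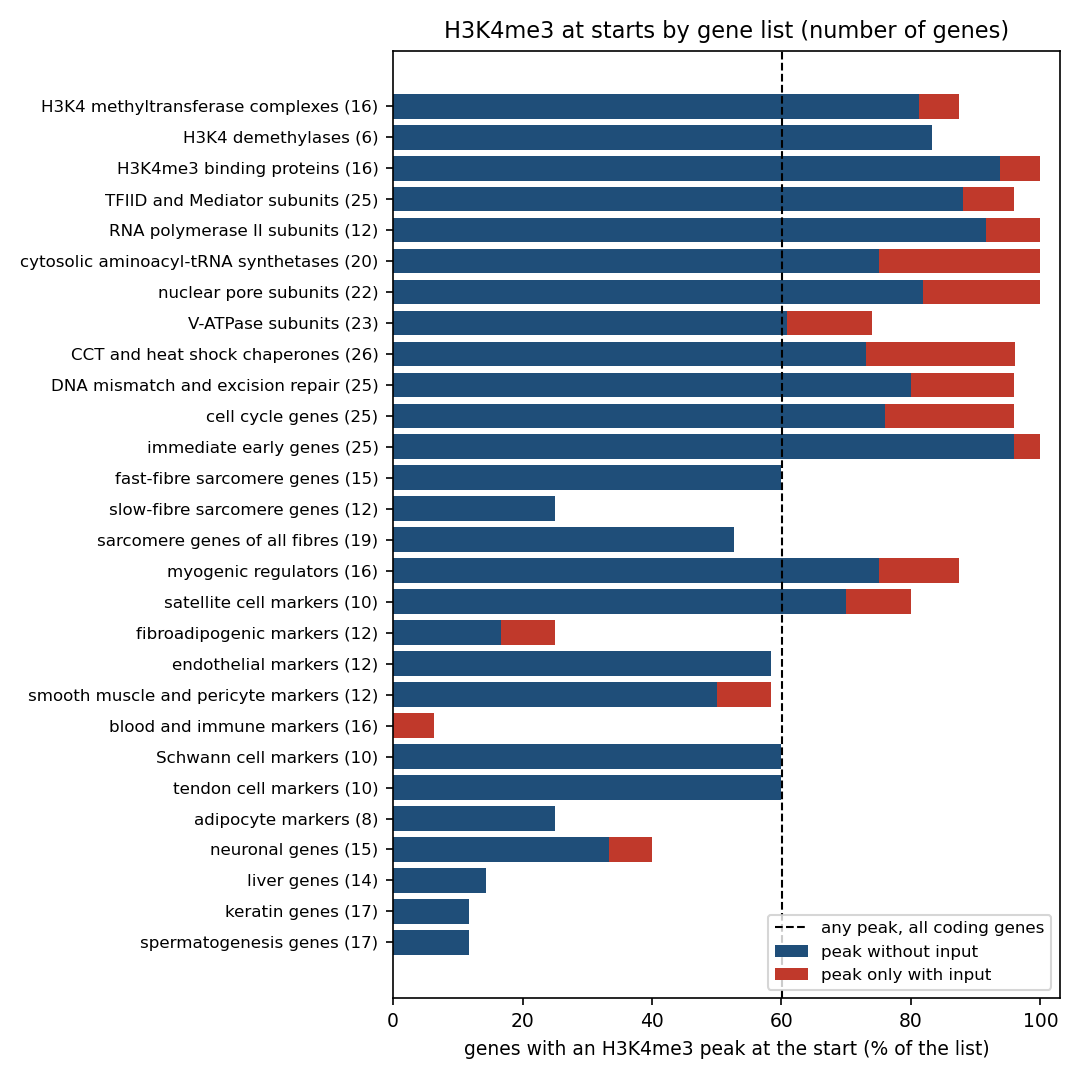
Percentage of each gene list with an H3K4me3 peak within 2 kb of the start (number of genes in brackets), split into genes with a peak that overlaps no input peak (blue) and genes with peaks only where input has 1 (red). The dashed line is the 60% of all coding genes with any peak; transcription and housekeeping lists stand right of it and slow-fibre, blood, liver, keratin and spermatogenesis lists left of it.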

How the data were processed

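The submitters' processing notes name Bowtie2, mm10 and MACS2 for these CUT&RUN libraries of mouse gastrocnemius. Versions, the use of an input in calling and the animals behind each library were not given in the sources used here, so the spread between inputs may be technical. The deposited lists are 1 per library. They give each peak's position, a score, a fold, a deposited −log10 p-value, a −log10 q-value that the authors made from it, and a summit offset. The fold is the authors' ratio of summit to local background, with 1 added to both. The lists stop near a q of 0.05.

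Restriction to chromosomes 1 to 19, X and Y kept 16573 of 16608 peaks in the H3K4me3 list, 3071 of 3117 in input 1 and 1309 of 1347 in input 2. Summit fragments were solved from fold and p under the Poisson model of the caller, and came out whole within 0.01% for 100%, 99.97% and 99.92% of peaks. On simulated peaks 99.9% of 1876 fragment counts and 100% of 2000 signed distances were recovered. Depth is given as background coverage, 0.482, 0.294 and 0.292 fragments per position in the same order, and limits what a missing peak can show. Genes came from RefSeq tables of GRCm38.p6, with 21263 stranded starts for 17492 of 21887 coding genes. A gene's peak is the highest in fold among those beyond input, or the highest if none is.

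Members, 28 gene lists and named genes were chosen with earlier results of these data known. Named genes are Phf2, the 12 highest and 12 widest peaks and the 10 with most fragments beyond input, the 10 highest and 10 lowest ratios at starts with both inputs, the 8 highest peaks with both inputs, 4 genes per list by fold, unmarked genes of the muscle and H3K4 lists, and all marked genes of lists with at most 4. The text gives examples of these, and 1 gene among them is not reported here. Size classes, the distance between start groups and other examples were set after the data were seen. Alternatives were a q of 1e-05, the median fold, overlap of 50% or within 1 kb, windows of 1 and 5 kb, leaving out either input, adding the Cre+ input, stranded starts alone, and the highest peak at a start. Scripts ran in Python 3.11.15 with scipy 1.17.1, numpy 2.4.6, matplotlib 3.10.9 and pandas 2.3.3.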

Additional observations from a re-analysis of the deposited data

How the results depend on the processing

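Direction could not change in counts and shares, so values are given. Of 70 alternatives to the main results 47 stayed within 1.5 times the count or within the interval of the median, and 23 moved. With the higher-fold 50% of each list, 7543 H3K4me3 peaks and 7406 genes were beyond input, 722 genes were marked only with input, 778 and 348 genes had a peak of input 1 and input 2, and list members with a peak went from 316 to 165. The medians at starts were then a fold of 13.3 and 77 fragments. With a q of 1e-05 or less, 133 genes were marked only with input, 123 and 53 had a peak of input 1 and input 2, the medians were 832 bp, a fold of 11.1 and 67 fragments, and the ratio at shared peaks was 1.68. With the CKO input added, 10418 peaks and 7581 genes were beyond input, 5561 genes were marked only with input and the ratio was 2.13. A window of 1 kb gave a fold of 11.03, and a window of 5 kb gave 808 bp, a fold of 10.8 and 63 fragments. Fewer peaks enter under the first 2 settings and more under the third by construction. Leaving out either input gave 15108 to 15863 peaks and 11833 to 12520 genes beyond input, 622 (without input 1) to 1309 genes only with input, and a ratio of 2.18 to 2.30. Width, fold, fragments and summit position of H3K4me3 come from its own list and were not recomputed against the input lists. Of 56 alternatives for single lists 22 moved, 19 of them with the median fold and 3 with a 5 kb window. With the median fold, members with a peak went from 25 to 2 in the immediate early list. They went from 9 to 1 in the fast-fibre list and from 10 to 1 in that of all fibres. The tRNA synthetase list went from 20 to 18 and DNA repair from 24 to 20. Stranded starts alone and the highest peak at a start were chosen after seeing the data. No paired analysis was possible because the H3K4me3 group has 1 library and the comparison comes from no test. Input summits rest on a median of 6 fragments, so an input peak missing from a list may be below what this depth can show.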
